A study of Oryctolagus cuniculus with 6 samples.

Results

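The miRNAs described here were taken by name as a group of hypoxia-linked, activity-linked and MEST-hosted miRNAs: both arms of miR-210, miR-132-3p, miR-212-3p and both arms of miR-335. Of these 6 members, 3 were analysed among the 577 mature miRNAs listed, namely miR-335-5p, miR-335-3p and miR-212-3p, while miR-210-3p, miR-210-5p and miR-132-3p were not analysed here. The members were chosen by name and not by their values. With miR-210 not analysed, the hypoxia part of the group's name rests on no measured member. With miR-132-3p not analysed, the activity part rests on miR-212-3p alone, which was too low to be tested. The miR-335 arms are in the group as products of a hairpin hosted by the gene MEST. The values below are those of miR-335 and, at the detection limit, miR-212.

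The vesicles came from seminal plasma of California x New Zealand white rabbit bucks aged 10 to 12 months, chosen among 14 males by semen quality over 8 ejaculates in 1 month. The Sub-fertile group held 3 biological replicates from males of low semen quality, and the Fertile group 3 from males of high semen quality, each from 2.5 mL of seminal plasma. Which male or males gave each replicate is not given in the labels. The group names thus stand for semen quality, and no fertility record was used here. Vesicles were isolated by ultracentrifugation and size exclusion chromatography, and small RNA was sequenced once per replicate.

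A miRNA is cut from a hairpin whose 5′ side gives the 5p arm and whose 3′ side gives the 3p arm, and usually 1 of the arms is loaded onto Argonaute in excess of the other. The hairpin of miR-335 lies in an intron of MEST, an imprinted gene expressed from the paternal allele in human and mouse. In the RefSeq rabbit assembly mOryCun1.1, used for gene order alone because the study's build is another, MIR335 also lies within MEST, before COPG2. The miR-132 and miR-212 hairpins form a cluster that is induced by the transcription factor CREB in rodent neurons, and miR-210 is a direct target of hypoxia-inducible factor in human cells. In the same rabbit assembly, MIR212 lies between OVCA2 and HIC1.

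Depth set what could be seen. Whole counts recovered from the deposited values numbered 129387, 242078 and 636929 for the Sub-fertile libraries 1 to 3, against 453675 to 772619 for the Fertile ones. On the deposited scale, a CPM value further scaled per library, 1 count was worth 6.24 in Sub-fertile replicate 1 and 1.33 in Fertile replicate 1. Sub-fertile replicate 1 was the shallowest library and stood apart in several miRNAs. For the testis and multiciliated cell markers (miR-34c-5p, miR-34b-5p, miR-449a-5p and miR-508-3p, all 4 detected), the summed value was 22717 there, 11669 and 14914 in the other 2 Sub-fertile libraries, and 9339 to 11291 in Fertile. The markers differed among themselves: miR-34c-5p, miR-34b-5p and miR-449a-5p were highest in Sub-fertile replicate 1, at 11502 for miR-34c-5p. There miR-508-3p was lowest, at 6950, and it made up most of the sum in Sub-fertile replicate 3, at 13302. In Sub-fertile replicates 2 and 3, miR-449a-5p was also above the highest Fertile library, at 1050 and 618 against 570. Of the 4 markers 0 passed by limma and 2 by DESeq2, against 3.42% and 7.26% of all tested miRNAs. Because Sub-fertile replicate 1 stood apart, the tests below are also given without it.

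Both arms of miR-335 were present in every library, with the 5p arm about an order of magnitude above the 3p arm. The level of miR-335-5p was high in Sub-fertile replicates 2 and 3 and low in Sub-fertile replicate 1, so the group difference was smaller than the spread within the Sub-fertile group. In all 6 libraries neither arm passed the test, and without Sub-fertile replicate 1 the 5p arm did, at 1.997-fold the Fertile level. That fit leaves out the library where the 5p arm was lowest. In it 16.7% of tested miRNAs passed, against 3.42% with all libraries. The 3p arm had no stable direction.

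In detail, miR-335-5p, known in human breast cancer cells as a suppressor of metastasis that acts on SOX4 and tenascin C, stood at 581, 1617 and 1992 in Sub-fertile replicates 1, 2 and 3, and at 932, 788 and 987 in Fertile replicates 1, 2 and 3. Sub-fertile replicates 2 and 3 thus lay above every Fertile library and replicate 1 lay below every one, so the groups overlapped. Of the 234 miRNAs tested, 18.8% had Sub-fertile replicates 2 and 3 both above all Fertile libraries, and 34.2% had Sub-fertile replicate 1 below all other libraries. The levels rested on 93, 396 and 1145 counts in Sub-fertile and on 699, 405 and 426 counts in Fertile. In Sub-fertile replicate 1 the 95% counting interval ran from 469 to 711, below that of each Fertile library, of which the lowest began at 713.

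The group mean of miR-335-5p was 1397 ± 731 in Sub-fertile and 902 ± 103 in Fertile vesicles (SD, n = 3 each). The fold change was 1.37 with a 95% interval of 0.701 to 2.68, and its log2 change of 0.46 had an SE of 0.42 (limma on log2(value + 1), adjusted p = 0.59). Over all tested miRNAs 3.42% passed the adjusted threshold of 0.05, 8 of 234, with 0.855% higher and 2.56% lower in Sub-fertile, and of the 2 tested members 0 passed. The groups did not overlap for 25.6% of tested miRNAs, and for 0 of the 2 members. Neither member reached an unadjusted p under 0.05, which 19.2% of tested miRNAs did. Of the 2 members 0 passed by edgeR (adjusted p = 0.42 for the 5p arm), which called 3.42% of miRNAs, and 0 by DESeq2 (adjusted p = 0.36), which called 7.26%. The interval includes both no difference and a doubling, so the test leaves the size of any difference wide.

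The spread was unequal between the groups. On the log2 scale the SD of miR-335-5p was 0.95 in Sub-fertile and 0.17 in Fertile vesicles, against medians over all tested miRNAs of 0.56 in Sub-fertile and 0.22 in Fertile. The level in Sub-fertile replicate 1 was 1.63 log2 units below the mean of the other 2 Sub-fertile libraries, a gap that 4.27% of tested miRNAs matched or exceeded in that direction. For miR-335-3p the gap was 1.59 log2 units, which 4.70% matched or exceeded. Both arms of the hairpin were therefore low in the same library.

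With Sub-fertile replicate 1 left out and 2 libraries remaining in its group, miR-335-5p averaged 1805 in Sub-fertile against 902 in Fertile vesicles. The log2 change was then 1.00 with an SE of 0.19, or 1.997-fold with a 95% interval of 1.504 to 2.65 (limma, adjusted p = 0.0014). It ranked 15th of 234 by p. In that fit 39 miRNAs passed, or 16.7% of those tested, and 5.13% passed in the upward direction, so a call there is less rare than with all libraries. Leaving out Sub-fertile replicate 3 instead gave a log2 change of 0.11 and leaving out replicate 2 one of 0.26, neither past the threshold. The library left out is also the shallowest, and the one highest in 3 of the 4 testis and multiciliated cell markers and lowest in miR-508-3p; the part of these in the result was not tested.

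**Figure D1:**
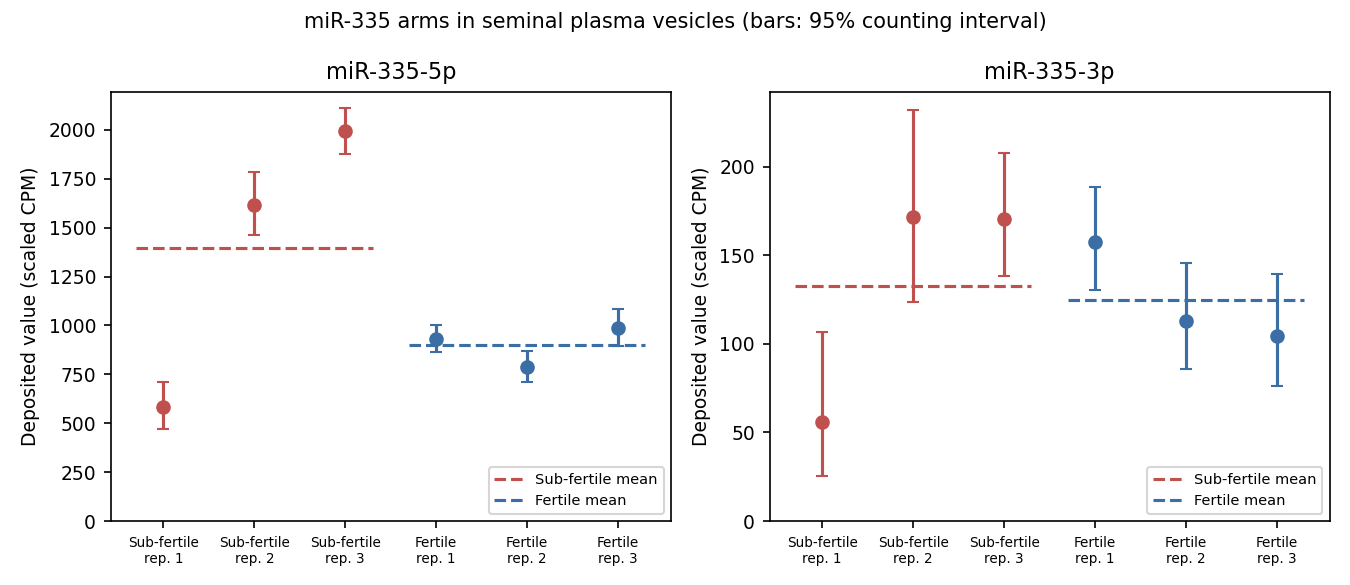
Deposited value (scaled CPM, vertical axis from 0) of miR-335-5p on the left and miR-335-3p on the right in each of the 3 Sub-fertile and 3 Fertile libraries; points are libraries, bars are 95% counting intervals and dashed lines group means. For the 5p arm, Sub-fertile replicates 2 and 3, at 1617 and 1992, lie above the Fertile libraries and replicate 1, at 581, below them.

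The minor arm, miR-335-3p, stood at 56.2, 172 and 171 in Sub-fertile replicates 1, 2 and 3, and at 157, 113 and 104 in Fertile replicates 1, 2 and 3. The order of the libraries followed that of the 5p arm at the low end, with Sub-fertile replicate 1 lowest. At the high end Sub-fertile replicates 2 and 3 stood only slightly above Fertile replicate 1, and all their counting intervals overlapped. These levels rested on 9, 42 and 98 counts in Sub-fertile and 118, 58 and 45 counts in Fertile, so Sub-fertile replicate 1 had an interval of 25.7 to 107.

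The mean of miR-335-3p was 133 ± 66.3 in Sub-fertile and 125 ± 28.5 in Fertile vesicles (SD, n = 3 each). Its log2 change was -0.05 with an SE of 0.47 and a 95% interval of -1.13 to 1.02 (limma, adjusted p = 0.94). The sign is not settled: under median-of-ratios scaling, plain CPM and both count tests it was positive, at 0.02 to 0.20. Without Sub-fertile replicate 1 the log2 change was 0.47 with an SE of 0.31 (limma, adjusted p = 0.32), or 1.39-fold with a 95% interval of 0.886 to 2.18.

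The scaling of Sub-fertile replicate 1 mattered for its levels. As plain CPM, with each library brought to the same total, miR-335-5p was at 719, 1636 and 1798 in Sub-fertile replicates 1, 2 and 3 and at 905, 756 and 939 in Fertile replicates 1, 2 and 3. The first Sub-fertile library then lay close to the lowest Fertile library. Under plain CPM the log2 change of miR-335-5p was 0.57 (limma, adjusted p = 0.44), and the groups overlapped as they did on the deposited scale.

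**Figure D2:**
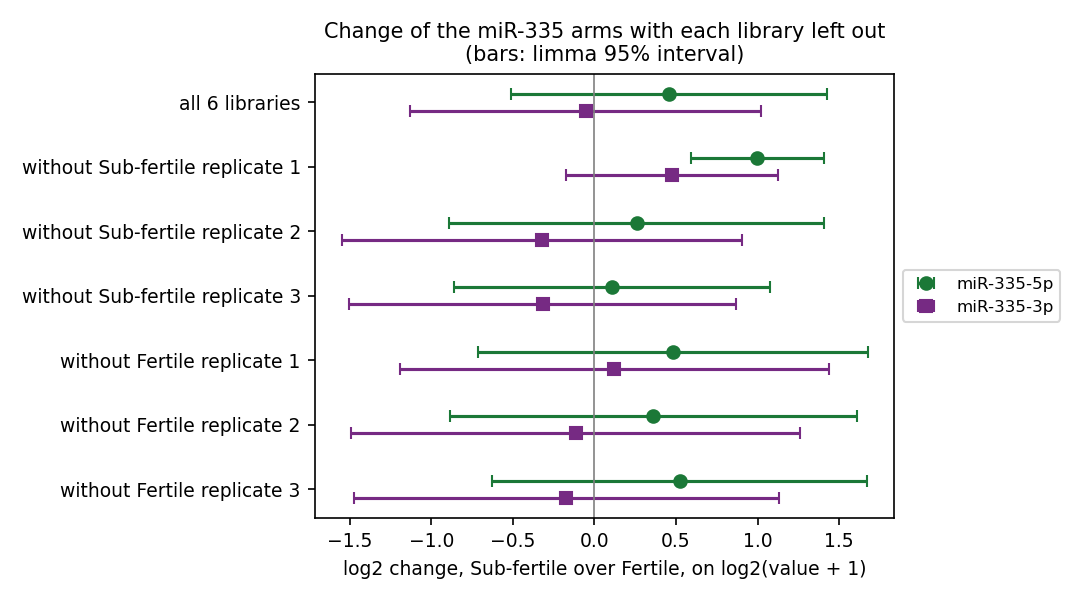
Change of miR-335-5p (green circles) and miR-335-3p (purple squares) on the log2(value + 1) scale, Sub-fertile over Fertile, with all 6 libraries and with each library left out; bars are limma 95% intervals. Of the 14 intervals drawn, only that of miR-335-5p without Sub-fertile replicate 1, from 0.59 to 1.41, lies clear of 0.

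Both arms were compared as a share and as a ratio. The 5p arm made up 91.2%, 90.4% and 92.1% of the miR-335 counts in Sub-fertile replicates 1, 2 and 3, and 85.6%, 87.5% and 90.4% in Fertile replicates 1, 2 and 3. The highest Fertile library and Sub-fertile replicate 2 were equal to 3 digits, and the groups overlapped there by less than the counting interval of either. The exact 95% binomial intervals ran from 83.9% to 95.9% in Sub-fertile replicate 1, from 90.5% to 93.6% in Sub-fertile replicate 3 and from 82.96% to 87.9% in Fertile replicate 1. The group means were 91.2% ± 0.854 in Sub-fertile and 87.8% ± 2.46 in Fertile (SD, n = 3 each).

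As a log2 ratio of the 5p to the 3p arm, miR-335 stood at 3.37 ± 0.16 in Sub-fertile and 2.86 ± 0.34 in Fertile vesicles (SD, n = 3 each). The difference of 0.51 had an SE of 0.35 and a 95% interval of -0.29 to 1.31 (limma over 57 hairpins, adjusted p = 0.46). Of all hairpins with both arms tested, 5.26% passed, 3 of 57. Without Sub-fertile replicate 1 the difference was 0.52 with an SE of 0.43 (limma, adjusted p = 0.42), where 21.1% of hairpins passed. Unlike the level of the 5p arm, the ratio hardly moved when that library was left out. The 5p arm was the higher one in 34 of the 57 hairpins, and miR-335, with a mean log2 ratio of 3.12, ranked 42nd of them by the size of its arm bias (median 4.06). Its arms were thus less unequal than those of most hairpins here, a description of these libraries with no test.

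**Figure D3:**
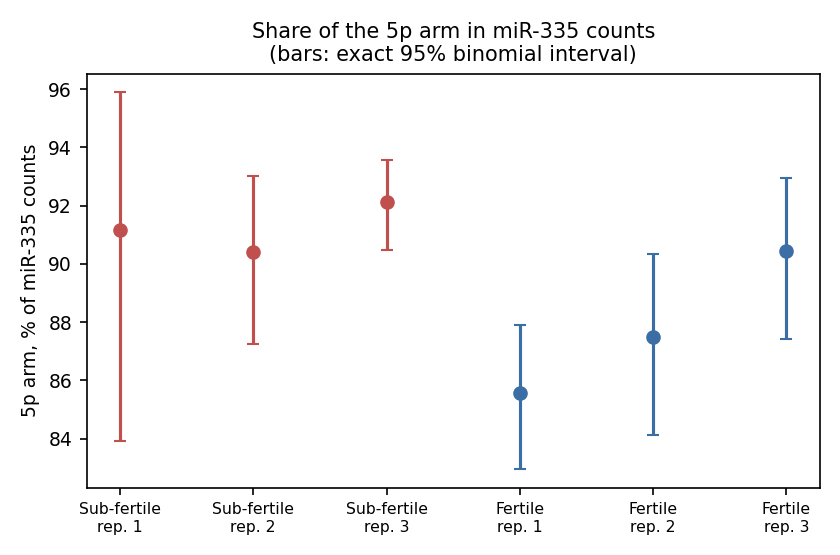
Share of the 5p arm in all miR-335 counts (percent, vertical axis not from 0) in each of the 3 Sub-fertile and 3 Fertile libraries; points are libraries and bars exact 95% binomial intervals. The Sub-fertile points lie between 90.4% and 92.1%, and the Fertile points between 85.6% and 90.4%.

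By level, miR-335-5p ranked 62nd and miR-335-3p 122nd of 577 miRNAs by mean deposited value, while miR-212-3p ranked 273rd. Within single libraries the rank of miR-335-5p was 78, 49 and 47 in Sub-fertile replicates 1, 2 and 3, and 66, 73 and 63 in Fertile replicates 1, 2 and 3. The order of miR-335-5p, miR-335-3p and miR-212-3p held in all 6 libraries, and in each the counting intervals of neighbours in that order did not meet. Efficiency of library preparation differs between miRNA sequences, so levels of different miRNAs are compared here only as measured counts.

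The CREB-linked miR-212-3p was at the edge of detection. It had 0, 0 and 5 counts in Sub-fertile replicates 1, 2 and 3, and 10, 0 and 1 counts in Fertile replicates 1, 2 and 3. On the deposited scale these were 0, 0 and 8.70 in Sub-fertile and 13.3, 0 and 2.32 in Fertile. It reached 10 in 1 library, below the filter of at least 3, and was not tested. Where it was at 0, the limit set by 3 counts was 18.7 in Sub-fertile replicate 1, 12.3 in Sub-fertile replicate 2 and 5.84 in Fertile replicate 2, for counting error only. A level like that of Fertile replicate 1, at 13.3, is under the limit of Sub-fertile replicate 1, so a difference from it was not detectable there. The same level is slightly above the limit of Sub-fertile replicate 2, at 12.3. In that library the counting interval reached 15.1, which still includes 13.3, so a difference was not resolved there.

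Pooled over libraries, miR-212-3p had 5 counts in Sub-fertile and 11 in Fertile, a ratio of rates of 0.794 with an exact 95% counting interval of 0.216 to 2.48. The opposite arm, miR-212-5p, had 2, 4 and 0 counts in Sub-fertile replicates 1, 2 and 3 and 1, 0 and 2 counts in Fertile replicates 1, 2 and 3. Its pooled ratio was 3.50 with an interval of 0.746 to 21.6, from 6 counts in Sub-fertile and 3 in Fertile. Both intervals include 1 and ignore the spread between libraries. With 16 counts of the 3p arm and 9 of the 5p arm in all, which arm was more abundant cannot be read at this depth.

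Across the 6 libraries, the tested miRNAs with the most similar profile to miR-335-5p were miR-98-5p, a let-7 family member, miR-421-3p and miR-107-3p. Likeness was measured as the root mean square difference of log2 values centred on each miRNA's mean, which was 0.26, 0.28 and 0.31 for these, against a median of 0.78 over 232 miRNAs. Its own 3p arm came 8th on this measure, at 0.33. The 3 nearest to miR-335-3p were miR-421-3p (0.19), miR-107-3p (0.22) and miR-6529-5p (0.23). All of these were lowest in Sub-fertile replicate 1, with miR-98-5p at 200, 498 and 456 in Sub-fertile replicates 1, 2 and 3 and at 288, 329 and 345 in Fertile replicates 1, 2 and 3. None of the 4 passed the test with all libraries (limma, adjusted p from 0.72 to 0.98) or without Sub-fertile replicate 1 (0.099 to 0.55).

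**Figure D4:**
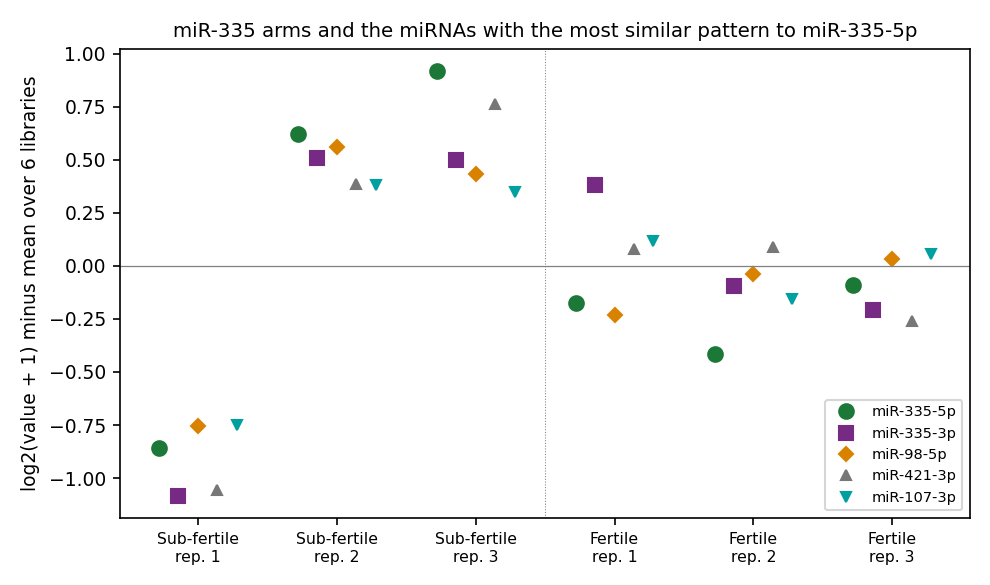
Level of miR-335-5p, miR-335-3p and the 3 miRNAs most similar to miR-335-5p (log2(value + 1) minus the mean over the 6 libraries, vertical axis) in the 3 Sub-fertile libraries on the left and the 3 Fertile libraries on the right. All 5 miRNAs are lowest in Sub-fertile replicate 1.

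The other hypoxia-linked miRNAs, those induced by low oxygen or reported to act on hypoxia-inducible factors or their regulators, were tested one by one, with no member past the threshold. Of 15 named, 11 were analysed, 10 were above 0 and 8 were tested, and 0 of 8 passed in either direction (limma; 0 at an unadjusted p under 0.05; 0 by edgeR and 0 by DESeq2). Over all tested miRNAs these shares were 3.42% by limma, 19.2% unadjusted, 3.42% by edgeR and 7.26% by DESeq2. Their median log2 change was 0.32, with 7 of 8 above 0, against a median of -0.10 over all tested miRNAs. Without Sub-fertile replicate 1 the list's median was 0.10, against -0.02 over all tested miRNAs.

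The smallest p in that list belonged to miR-20a-5p, a member of the miR-17/92 cluster family of growth-linked miRNAs, and to miR-103a-3p, which is known for a role in insulin sensitivity in mice. Levels of miR-20a-5p were 393, 143 and 186 in Sub-fertile replicates 1, 2 and 3, against 155, 173 and 127 in Fertile replicates 1, 2 and 3. Its log2 change was 0.54 with an SE of 0.39 (limma, adjusted p = 0.51), and unlike miR-335 it was highest in Sub-fertile replicate 1. With that library left out its log2 change was 0.12 with an SE of 0.30 (limma, adjusted p = 0.84). For miR-103a-3p the log2 change was 0.31 with an SE of 0.24 (limma, adjusted p = 0.52). Without Sub-fertile replicate 1 it was the 1 member of the list to pass, at 0.56 on the log2 scale (limma, adjusted p = 0.024). That is 1 of the 8 tested in the list, in a fit where 16.7% of all tested miRNAs passed. The hypoxia-induced miR-424-5p had 0 counts in every library, and miR-199a-5p, which represses HIF1A in rat heart cells, had 16 counts in all and was not tested.

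Of 11 other activity-linked miRNAs named, mostly neural, 7 were analysed and 6 were above 0, and 3 passed the filter on low values. Of these 0 of 3 passed the test (limma; 0 at an unadjusted p under 0.05; 0 by edgeR, and 1, miR-184-3p, by DESeq2). Over all tested miRNAs these shares were 3.42% by limma, 19.2% unadjusted, 3.42% by edgeR and 7.26% by DESeq2. The list's median log2 change was 0.98, against -0.10 over all tested miRNAs. With 3 tested, that median was the value of miR-219a-5p alone, which had 17 counts in all (SE 1.58, limma adjusted p = 0.81). Without Sub-fertile replicate 1 the list's median was 0.40, against -0.02 over all tested miRNAs. The miRNA miR-184-3p, known from the eye and from neural stem cells, stood at 137, 24.5 and 397 in Sub-fertile replicates 1, 2 and 3 and at 22.7, 33.1 and 32.4 in Fertile replicates 1, 2 and 3. Its log2 change was 1.90 with an SE of 0.87 (limma, adjusted p = 0.28), and the DESeq2 adjusted p was 0.0023. Leaving out Sub-fertile replicate 1 gave 1.75 with an SE of 0.76 (limma, adjusted p = 0.13). The groups overlapped, since Sub-fertile replicate 2 lay among the Fertile libraries.

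For miR-9-5p, a neural miRNA, the levels were 337, 163 and 81.8 in Sub-fertile replicates 1, 2 and 3 and 251, 144 and 246 in Fertile replicates 1, 2 and 3. Its log2 change was -0.32 with an SE of 0.50 (limma, adjusted p = 0.80), and without Sub-fertile replicate 1 it was -0.83 with an SE of 0.35 (limma, adjusted p = 0.12). The neuron-specific miR-124-3p had 0 counts in every library. The leukocyte markers, all 5 detected, summed to 579 to 943 in Sub-fertile and 476 to 744 in Fertile vesicles. They differed among themselves: the log2 change was above 0 for 4 of the 5, highest for miR-223-3p, and -0.56 (SE 0.38) for miR-150-5p. Within the Fertile group miR-223-3p alone ran from 5.33 to 364. The epithelial pair miR-200c-3p and miR-141-3p summed to 76557 to 122490 in Sub-fertile and 84039 to 91827 in Fertile. The red cell and platelet markers analysed summed to 6.24 to 20.4 in Sub-fertile and 12.0 to 37.1 in Fertile, with miR-144-3p at 0. The epithelial sum was lowest in Sub-fertile replicate 1 and highest in Sub-fertile replicate 3, as was miR-335-5p. In Sub-fertile replicate 2 they differed. The epithelial sum, at 82903, was there below every Fertile library, and miR-335-5p, at 1617, above every one. Of the epithelial pair, miR-141-3p was lowest in Sub-fertile replicate 1 too and miR-200c-3p in Fertile replicate 3. The part of this pair in the level of miR-335-5p was not tested. In such bulk vesicle RNA, fewer vesicles from a cell type and fewer copies per vesicle cannot be told apart.

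**Figure D5:**
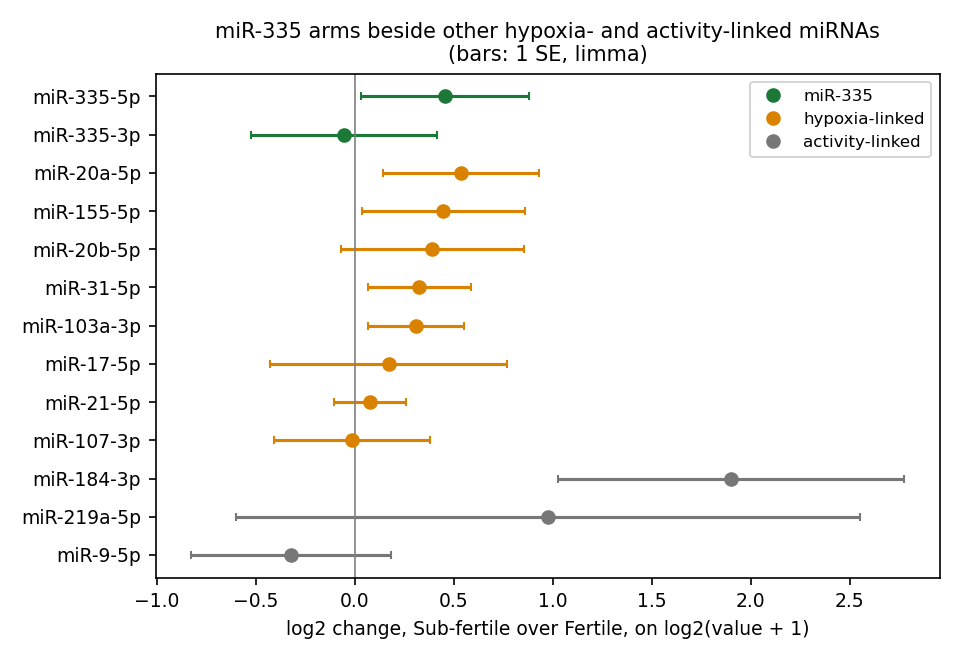
Change of the 2 miR-335 arms, 8 other hypoxia-linked and 3 other activity-linked miRNAs (log2 change, Sub-fertile over Fertile, on the log2(value + 1) scale); points are limma estimates and bars 1 SE. None passed the limma test, and miR-184-3p, at 1.90, lies farthest from 0.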

How the data were processed

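Small RNA of seminal plasma vesicles was sequenced in 6 libraries, prepared by a QIAseq miRNA kit, per the labels' protocols. The submitters' processing notes name Bowtie2 2.2.2, bcl2fastq, DESeq2 and, as genome build, OryCun2.0, without their roles. The deposited value is a normalized signal per miRNA, named CPM by the authors. Divided by the smallest value above 0 of its library, 100% of values came out whole (largest distance 1.46e-11), which gave back counts. The further scaling of each of the 6 libraries equalled the edgeR TMM (trimmed mean of M-values) factor computed from these counts. That factor was 1.24 in Sub-fertile replicate 1. The sources used here do not say if the counts are reads or molecular identifiers. PCR copies among reads are not independent molecules, and count intervals cover counting error only.

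The test was limma 3.58.1 (R 4.3.3) on log2(value + 1) with a mean-variance trend, as a two-sided test over the 234 miRNAs at 10 or more in at least 3 libraries, with Benjamini-Hochberg adjustment at 0.05. Changes are Sub-fertile over Fertile, and the scale understates those of low miRNAs. Arm ratios were fitted likewise. Counts were also tested with edgeR 4.0.16 and DESeq2 1.42.0. Scripts were tested on simulated data. No library was a copy of another (lowest chi-square per degree of freedom 23.1). The members were given by name and not by their values, while the lists were chosen with earlier results of these data known. Named miRNAs were the members, their opposite arms, the 3 nearest profiles of each tested member and the 2 smallest p of each list. The miRNA miR-219a-5p was named as well, as the median of its list. The list entry miR-107 was read as miR-107-3p. Sequences and shared seeds were not used here.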

Additional observations from a re-analysis of the deposited data

How the results depend on the processing

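Over 18 other settings miR-335-5p kept a positive change. It ranged from 0.45 to 0.71 (log2) under other pseudocounts, filters, scalings, tests and a replicate block, and from 0.11 to 1.00 with 1 library left out. It passed in 1 setting, without Sub-fertile replicate 1. The 3p arm changed sign, at 0.022 when scaled by median of ratios, 0.060 as plain CPM, 0.12 by edgeR and 0.20 by DESeq2, and from -0.32 to 0.47 with 1 library left out. It was positive without Fertile replicate 1 (0.12) and without Sub-fertile replicate 1 (0.47). The cause was not tested. The arm ratio kept its sign and its side of the threshold, from 0.36 to 0.70 with 1 library left out and from 0.50 to 0.54 otherwise.

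The count of miRNAs called was 14 with a filter at 100, where fewer were tested, 5 with quantile normalization, 1 without a trend and 17 by DESeq2, and 3 to 39 with 1 library left out, the cause not tested. It was 3 without any 1 Fertile library and 39 without Sub-fertile replicate 1. With the replicate number as a block it was 0 (limma, 43 at an unadjusted p under 0.05), and miR-335-5p stayed at 0.46. Deviations from the group means correlated at 0.05, -0.12 and 0.10 between libraries of the same number, and 2 of 6 libraries matched their own number best, so the labels' numbers are not taken as pairs. The comparison of miR-132-3p with miR-212-3p was not run, since miR-132-3p was not analysed here. Depth limits miR-212-3p, with 16 counts in all.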

Other observations

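The miRNA genes next to MIR335 in the order of the mOryCun1.1 assembly are those of miR-183, miR-96 and miR-182 on one side and of miR-29a and miR-29b-1 on the other. Their arms were chosen after the values were seen, and 0 of 5 passed (limma; 1 at an unadjusted p under 0.05; 0 by edgeR and 0 by DESeq2), with a median log2 change of 0.01 against -0.10 over all tested miRNAs. Over all tested miRNAs 3.42% passed by limma and 19.2% had an unadjusted p under 0.05, while 3.42% passed by edgeR and 7.26% by DESeq2. Without Sub-fertile replicate 1 the median was -0.23, against -0.02 over all tested miRNAs. The sensory and epithelial miR-182-5p averaged 7945 ± 809 in Sub-fertile and 11384 ± 995 in Fertile vesicles (SD, n = 3 each), with a log2 change of -0.52 (SE 0.17, limma adjusted p = 0.12). From the same cluster, the estimate for miR-183-5p was -0.40 on the log2 scale (SE 0.18), and 0.47 (SE 0.24) for miR-96-5p. On the other side of MIR335, the estimate was 0.01 (SE 0.25) for miR-29a-3p and 0.36 (SE 0.18) for miR-29b-3p, which can also come from another gene. All 3 Sub-fertile libraries of miR-29b-3p, at 1617, 1895 and 2098, lay above the Fertile ones, at 1538, 1364 and 1437, a separation that 25.6% of tested miRNAs showed in one or the other direction. The groups also did not overlap for miR-182-5p and miR-183-5p, both lower in Sub-fertile. For miR-96-5p they were separated upward by little, with the lowest Sub-fertile library at 322.7 and the highest Fertile one at 321.2. Those of miR-29a-3p overlapped. Unlike miR-335-5p, miR-29b-3p was not lowest in Sub-fertile replicate 1 among all libraries.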
